A study of Mus musculus with 25 samples.

Results

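The comparison sets the full ethanol regimen (WT_Full) against the milder one (WT_Half) in the duodenum of wild-type mice. Its members are the 4 WT_Full and 7 WT_Half libraries, chosen by their labels, 11 of the 25 libraries of the series. All came from male C57BL/6N mice that were 8 weeks old at the start, were fed for 8 weeks and carried no engineered allele. WT_Full mice had a diet with 5% ethanol and 4 g/kg ethanol by gavage 2 times per week, and WT_Half mice a diet with 2.5% ethanol and 2 g/kg at the same rhythm. Death came 9 hours after the last gavage, for which the design text gives 5 g/kg. The labels do not say whether that dose also applied to WT_Half, or whether mice on control diet were gavaged. The 4 WT_Con libraries (control diet, same strain, sex and age) are given as levels only, with no test. Polyadenylated RNA of whole duodenum was counted per gene, at 24.6 to 33.2 M counts per WT_Full library and 30.2 to 41.0 M per WT_Half library (M for mega).

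The duodenum is the first stretch of small intestine, so its lining meets swallowed ethanol at high concentration. Ethanol is oxidised there and in the liver to acetaldehyde by alcohol dehydrogenases, and acetaldehyde to acetate by aldehyde dehydrogenases, chiefly the mitochondrial enzyme encoded by Aldh2. The epithelium is coated by mucins, renewed from crypts that also hold antimicrobial Paneth cells, and patrolled by intraepithelial T and NK-like lymphocytes that sit between the absorptive cells.

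No gene differed between WT_Full and WT_Half after adjustment over all genes. The quasi-likelihood F test of edgeR with Benjamini-Hochberg adjustment called 0 of 16967 genes, 0%, at an adjusted p under 0.05. Without adjustment, 434 genes had a p under 0.05 with a higher level in WT_Full, 2.56% of those tested, and 346 with a lower level, 2.04%. DESeq2 on the same libraries called 5 genes higher, 0.0294%, and 15 lower, 0.0883%, and limma-voom with sample quality weights called 2 lower. A log2 change above 0 was found for 9279 genes, 54.7%, and the median over all genes was 0.02. The median standard error (SE) of a log2 change was 0.24, and the 95% interval lay within a 2-fold change in either direction for 11952 genes, 70.4%. For the other genes the interval reached past a 2-fold change in at least 1 direction. No gene named here passed in edgeR over the 11 libraries, and Gm9008, Cd244 and Xcl1 were not tested, so their values are descriptions, and calls by another tool are given with its name.

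The libraries sorted by regimen only in part, with 1 library of each group on the side of the other. On the first principal component of log2 counts per M counts (CPM), which held 35.1% of the variance, WT_Full replicates 1, 2 and 3 lay at -38.6, -24.4 and -36.5 and WT_Full replicate 4 at 52.2. WT_Half replicate 1 lay at -55.3, next to the first 3 WT_Full libraries, and the other WT_Half libraries lay between -0.6 and 33.2. WT_Full replicate 4 was therefore beyond all WT_Half libraries on this axis. Without WT_Full replicate 4 edgeR again called 0 genes with Benjamini-Hochberg adjustment, with 2091 at an unadjusted p under 0.05 in place of 780, and without WT_Half replicate 1 it called 0, with 1446. Markers of intestinal epithelium were high throughout, with a mean log2 CPM of 9.17 to 9.53 in WT_Full and 9.11 to 9.49 in WT_Half over 12 genes such as the villus protein gene Vil1 and the homeobox gene Cdx2. The pieces of tissue differed in glands of the submucosa. Summed over the Brunner gland genes Muc6, Tff2 and Gkn3, WT_Full libraries had 15.3 to 7156 CPM, and WT_Half libraries 46.5 to 16945 CPM. WT_Con libraries had 35.1 to 53685 CPM, with a median of 21929, against medians of 43.7 in WT_Full and 123 in WT_Half.

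**Figure D1:**
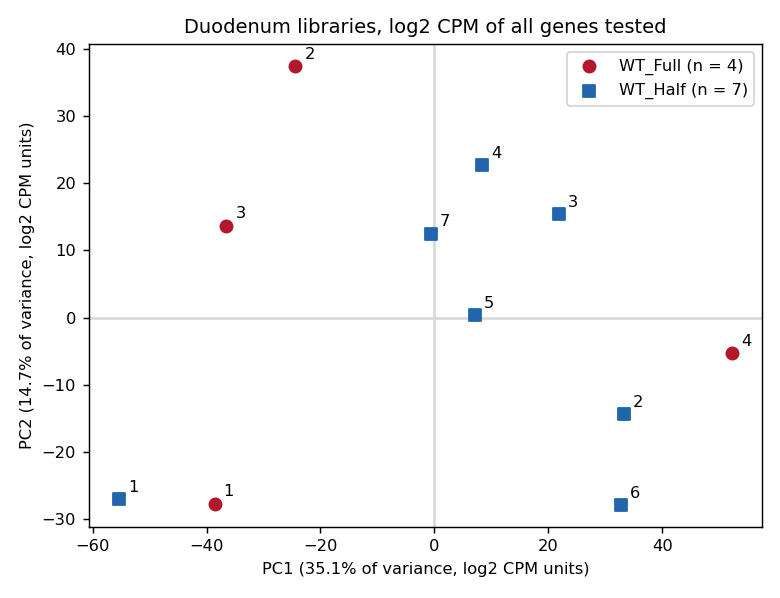
The 4 WT_Full and 7 WT_Half libraries on the first 2 principal components of log2 CPM over all genes tested, with replicate numbers beside the points. WT_Full replicate 4, at 52.2 on the first component, lies on the side of most WT_Half libraries, and WT_Half replicate 1, at -55.3, beside WT_Full replicates 1 and 3.

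The gene with the smallest p was Muc3a, lower in WT_Full. Muc3a (ENSMUSG00000094840, GRCm38 chromosome 5, 137208813 to 137212389, minus strand) is annotated beside Muc3 (ENSMUSG00000037390, 137134922 to 137149322, minus strand), the membrane-bound mucin of the intestinal brush border in mice. Muc3a had 85.7, 47.6, 56.1 and 52.2 CPM in WT_Full, against 135 to 264 CPM with a median of 171 in WT_Half. All 4 WT_Full libraries were below all 7 WT_Half libraries. The log2 change was -1.63 ± 0.23 (SE), and the edgeR adjusted p after Benjamini-Hochberg adjustment was 0.177, the smallest over all genes tested. Muc3 had 1024, 1252, 948 and 1742 CPM in WT_Full, against 1372 to 3694 with a median of 3178 in WT_Half. Only WT_Half replicate 1, at 1372, reached into the range of WT_Full. Its log2 change was -1.23 ± 0.26. Both genes passed with DESeq2 (adjusted p = 4.15e-08 for Muc3a and 0.00591 for Muc3) and with limma-voom (0.0434 and 0.0215). The genes are neighbours with related sequence, so reads may be shared between them, which was not tested. The pair is therefore not taken as separate results. Within WT_Full their order differed, with Muc3a highest in replicate 1 and Muc3 highest in replicate 4. Of 14 genes of goblet cells and mucus, Muc3 among them, 10 had a positive log2 change, and the median was 0.15, or -0.03 without WT_Full replicate 4. Spink4, a goblet cell peptidase inhibitor, had 140, 182, 152 and 91.0 CPM in WT_Full, against 53.2 to 124 with a median of 100.3 in WT_Half. Muc4, another membrane mucin, had 109, 70.8, 125 and 78.4 CPM in WT_Full, against 35.0 to 93.6 with a median of 62.9 in WT_Half. For both, the groups overlapped.

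Lymphocyte transcripts lay lower in WT_Full. All 19 tested genes of intraepithelial T and NK cells had a negative log2 change, with a median of -1.63 beside 0.02 over all genes, and 15 had an unadjusted p under 0.05, beside the 2.04% of all genes given above. None passed in edgeR, and Cd244 and Xcl1 were not tested for low counts. Klrd1 (CD94, a subunit of NK receptors; chromosome 6, 129591782 to 129598775) had 0.607, 1.00, 0.447 and 0.937 CPM in WT_Full, against 1.04 to 4.49 with a median of 3.22 in WT_Half. The groups were apart by a narrow margin, set by WT_Half replicate 1. Its log2 change was -2.10 ± 0.40 (adjusted p = 0.000674 in DESeq2). Cd8a, the co-receptor chain of cytotoxic T cells, had 2.13, 1.54, 0.951 and 4.38 CPM in WT_Full, against 1.99 to 19.0 with a median of 8.36 in WT_Half. Ccl5, a chemokine made by activated T and NK cells, had 2.32, 1.78, 0.671 and 2.44 CPM in WT_Full, against 1.14 to 21.8 with a median of 7.17 in WT_Half. In both, WT_Half replicate 1 was the library inside the range of WT_Full. Log2 changes were -2.02 ± 0.55 for Cd8a and -2.41 ± 0.67 for Ccl5, with adjusted p of 0.0486 and 0.0436 in DESeq2. Zap70, the kinase of the T cell receptor, had a log2 change of -1.82 ± 0.48, and Cd7, a lymphocyte surface antigen, one of -1.97 ± 0.53 (adjusted p = 0.0486 in DESeq2).

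The summed level of these 19 T and NK genes was 21.6 to 68.1 CPM in WT_Full, with a median of 25.9, and 21.5 to 204 CPM in WT_Half, with a median of 94.4. Outside WT_Half replicate 1 the WT_Half libraries were all above every WT_Full library in the mean log2 CPM of the list, 1.65 to 2.73 against 0.37 to 1.31. From control diet to the full regimen, the mean log2 CPM was 2.22 to 3.23 in WT_Con, 0.41 to 2.73 in WT_Half and 0.37 to 1.31 in WT_Full. WT_Half stood between the other groups in the group mean for 19 of 19 genes, beside 53.9% of all genes tested. Leaving out 1 library, the median log2 change of the list ran from -2.04 without WT_Full replicate 4 to -1.34 without WT_Half replicate 6. In bulk tissue, fewer lymphocytes and less of these RNAs per lymphocyte cannot be told apart. Nlrc3, an inhibitor of innate and T cell signalling, had 0.759, 0.772, 0.839 and 1.37 CPM in WT_Full, against 1.29 to 4.63 with a median of 2.26 in WT_Half. Cish, a cytokine-induced inhibitor of STAT5 signalling, had 8.84, 7.14, 7.83 and 6.33 CPM in WT_Full, against 9.85 to 15.1 with a median of 11.5 in WT_Half. For Cish the groups did not overlap, and for Nlrc3 1 WT_Full library reached into WT_Half. Log2 changes were -1.46 ± 0.35 for Nlrc3 and -0.69 ± 0.17 for Cish (adjusted p = 0.0468 and 0.035 in DESeq2).

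Promoters of these lymphocyte genes are shown because all tested members lay lower together. RefSeq (build GRCm38.p6) gave a promoter for 13 of the 21 listed genes, searched over the 250 bases before the first start. The core TGTGGT, or ACCACA on the other strand, to which RUNX factors of T and NK cells bind, was in 7 of 13 (53.8%), beside 14.2% of 27025 promoters of the same length. The 7 include Xcl1, which was not tested in edgeR. A match is a stretch of letters, not a shown binding site. The 3 promoters here were picked from those 7, so none without the core is shown. In the 3 promoters here, written 5′ to 3′ on the strand of the gene, capitals mark that core.
Lck (chr4:129573642-129573891, minus strand): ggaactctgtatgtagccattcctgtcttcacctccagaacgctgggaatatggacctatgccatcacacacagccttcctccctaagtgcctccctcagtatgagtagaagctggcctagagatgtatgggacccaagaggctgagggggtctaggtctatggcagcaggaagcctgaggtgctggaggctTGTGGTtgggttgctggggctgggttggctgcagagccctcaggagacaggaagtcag
Nkg7 (chr7:43436888-43437137, plus strand): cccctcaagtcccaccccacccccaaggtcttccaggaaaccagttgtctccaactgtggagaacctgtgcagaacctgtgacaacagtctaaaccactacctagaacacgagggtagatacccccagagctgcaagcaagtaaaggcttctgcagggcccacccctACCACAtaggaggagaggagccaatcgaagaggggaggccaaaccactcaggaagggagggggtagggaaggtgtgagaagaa
Gzmb (chr14:56262335-56262584, minus strand): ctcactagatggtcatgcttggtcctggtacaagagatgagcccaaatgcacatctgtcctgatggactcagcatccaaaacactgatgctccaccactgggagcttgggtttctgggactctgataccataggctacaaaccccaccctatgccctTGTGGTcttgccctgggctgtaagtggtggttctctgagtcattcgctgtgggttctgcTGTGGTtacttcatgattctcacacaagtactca
Lck is the first kinase of T cell receptor signalling, Nkg7 a protein of cytotoxic granules and Gzmb the protease granzyme B. Their log2 changes were -1.18 ± 0.41 for Lck, -1.97 ± 0.71 for Nkg7 and -1.08 ± 0.64 for Gzmb. For Gzmb the unadjusted p in edgeR was 0.12.

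Genes of antigen presentation and B cells were less uniform. Of 11 MHC class II genes 10 had a negative log2 change, with a median of -0.30. At an unadjusted p under 0.05, 1 was lower, beside 2.04% of all genes. H2-Aa, an alpha chain of MHC class II, had 15.9, 19.7, 46.4 and 121 CPM in WT_Full, against 26.9 to 120 with a median of 80.3 in WT_Half. WT_Full replicate 4 was as high as the highest WT_Half library. The median of the list was -1.08 without WT_Full replicate 4 and -0.01 without WT_Full replicate 1. Of 12 B and plasma cell genes 9 had a negative log2 change, with a median of -0.25. Ighm, the heavy chain of IgM, had 2.82 to 6.59 CPM in WT_Full, against 3.35 to 61.0 with a median of 8.90 in WT_Half.

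**Figure D2:**
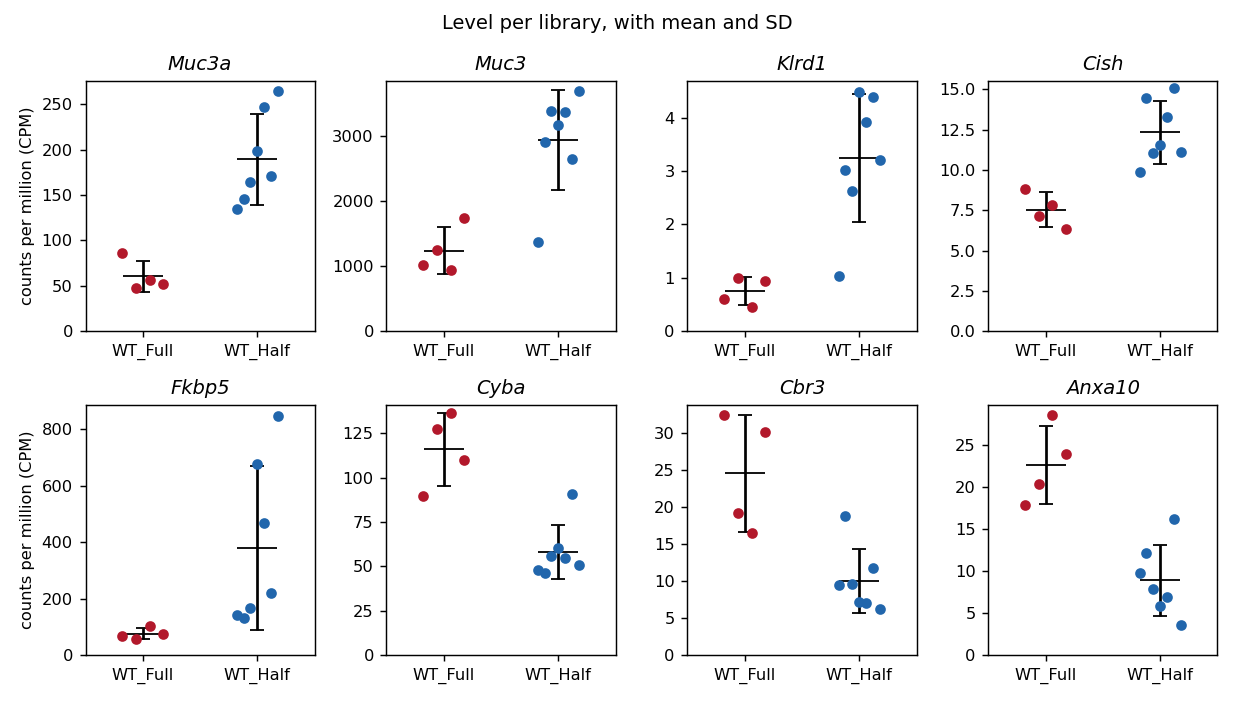
Level per library in CPM for 8 genes, WT_Full at left and WT_Half at right, with the mean (wide line) and SD (bars). Muc3a, Klrd1, Cish and Fkbp5 are lower in all 4 WT_Full libraries than in all 7 WT_Half libraries, Anxa10 is higher in all, and for Muc3, Cyba and Cbr3 the groups overlap by 1 library of WT_Half.

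Another set of genes was highest in the mean in WT_Half and lower in both WT_Full and WT_Con. Fkbp5, a co-chaperone of the glucocorticoid receptor and a classic target of it (chromosome 17, 28399094 to 28517527), had 66.0, 55.9, 101 and 74.6 CPM in WT_Full, against 132 to 847 with a median of 221 in WT_Half. The groups did not overlap. The log2 change was -2.34 ± 0.57 (adjusted p = 0.00463 in DESeq2). From control diet to the full regimen, Fkbp5 averaged 48.2 ± 36.0 CPM in WT_Con (SD, n = 4), 379 ± 290 in WT_Half (n = 7) and 74.4 ± 19.4 in WT_Full (n = 4). WT_Half replicates 4, 5 and 7 carried the high values, at 678, 467 and 847 CPM, and the other WT_Half libraries lay at 132 to 221.

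The same 3 WT_Half libraries were the highest for other genes. Zbtb16, a transcription factor induced by glucocorticoids, had 49.2, 25 and 52.9 CPM in these, 3.22 to 6.61 in the other WT_Half libraries and 2.51, 5.60, 3.13 and 1.71 in WT_Full. In WT_Con it had 4.50 to 8.06 CPM. Outside the 3 libraries, WT_Half overlapped with WT_Full and with WT_Con. Cep85, a centrosomal protein, had 289, 331, 320 and 308 CPM in WT_Full, against 424 to 1419 with a median of 553 in WT_Half and 225 to 300 in WT_Con. Here the groups did not overlap, and the log2 change was -1.25 ± 0.32. Rrm2, a subunit of ribonucleotide reductase, had 80.4, 47.5, 79.5 and 40.4 CPM in WT_Full, against 63.1 to 408 with a median of 122 in WT_Half and 20.9 to 49.1 in WT_Con. The order over the 3 regimens was thus WT_Con, WT_Full, WT_Half in the mean of Fkbp5, Cep85 and Rrm2, with overlap of WT_Con and WT_Full for Fkbp5, Cep85 and Rrm2 alike.

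Not every glucocorticoid-responsive gene had this pattern. Of 12 tested genes 11 had a negative log2 change, with a median of -0.41. At an unadjusted p under 0.05, 2 were lower, beside 2.04% of all genes. For 1 the groups did not overlap, beside 0.259% of all genes below in every library. Errfi1, a feedback inhibitor of the EGF receptor, had 96.1, 110, 115 and 113 CPM in WT_Full, against 81.5 to 269 with a median of 154 in WT_Half. Sgk1, a kinase that raises sodium uptake, had 73.0, 71.9, 32.6 and 494 CPM in WT_Full, against 19.2 to 641 with a median of 345 in WT_Half. For both, the range of WT_Half took in that of WT_Full. Averaged over the list, log2 CPM was 5.28 to 5.48 in WT_Full, 6.33 to 6.74 in WT_Half replicates 4, 5 and 7 and 5.15 to 5.74 in the other WT_Half libraries. Those 3 libraries were singled out by Fkbp5 and Zbtb16, which are in the list, so their higher average is in part given by construction. Mt1, a metallothionein also inducible by glucocorticoids, had 124, 155, 116 and 192 CPM in WT_Full, against 83.8 to 570 with a median of 189 in WT_Half. The glucocorticoid receptor half-site AGAACA, or TGTTCT on the other strand, was in 2 of 10 promoters of the list (20%), beside 16.2% of all promoters of that length. Whether time of day or handling differed between these mice is not given, and its part was not tested.

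**Figure D3:**
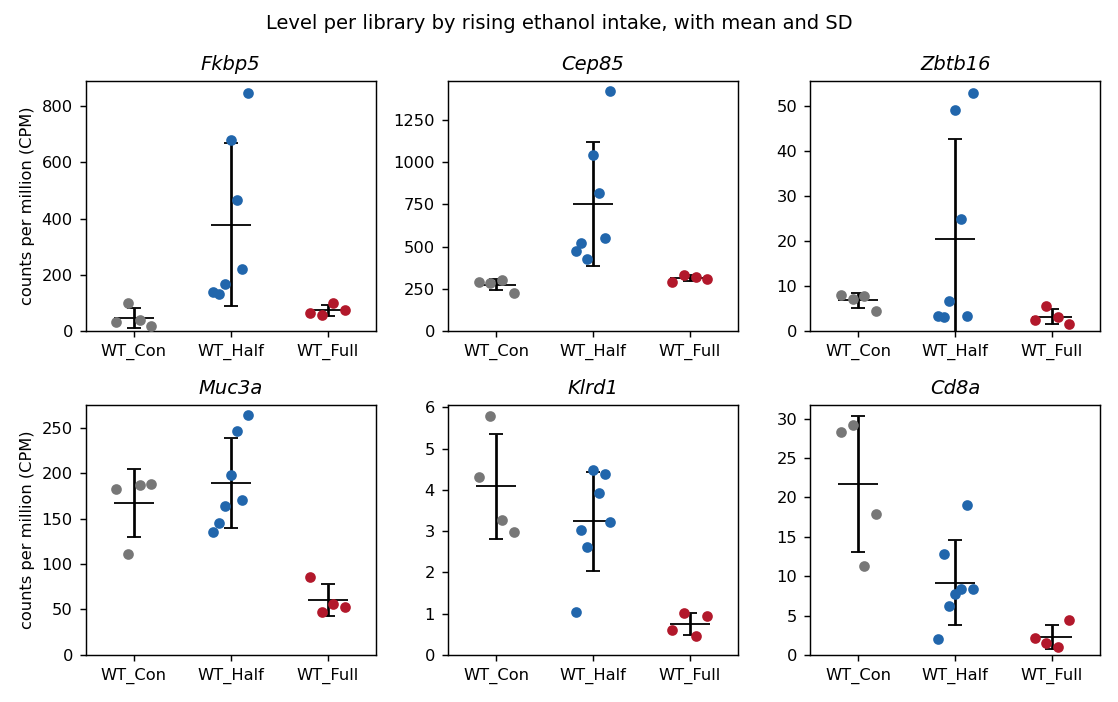
Level per library in CPM for 6 genes over WT_Con, WT_Half and WT_Full, with the mean (wide line) and SD (bars, the lower bar of Zbtb16 in WT_Half being cut at 0). Fkbp5, Cep85 and Zbtb16 are highest in the mean in WT_Half, for Zbtb16 through 3 of its 7 libraries, Muc3a is low in WT_Full alone at 47.6 to 85.7 CPM, and Klrd1 and Cd8a are lowest in the mean in WT_Full and highest in WT_Con.

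On the higher side, the gene with the smallest p was Cyba. Cyba, the p22phox subunit shared by several NADPH oxidases (chromosome 8, 122424776 to 122432930), had 89.8, 127, 136 and 110 CPM in WT_Full, against 46.0 to 91.0 with a median of 54.5 in WT_Half. WT_Half replicate 6, at 91.0, was the 1 library that overlapped. The log2 change was 1.02 ± 0.19, with an edgeR adjusted p of 0.976 after Benjamini-Hochberg adjustment and 0.00463 in DESeq2. Without WT_Half replicate 6 the adjusted p in edgeR was 0.0237. As that library was the 1 that overlapped, leaving it out draws the groups apart by construction. Ceacam10, a member of the carcinoembryonic antigen family, was not among the leading genes in edgeR and was picked out after its values were seen. It had 12.3, 16.2, 17.4 and 17.5 CPM in WT_Full, against 14.2 CPM in WT_Half replicate 6 and 0.541 to 2.52 in the other WT_Half libraries. A single WT_Half library thus stood at the WT_Full level. The log2 change was 2.42 ± 0.79 in edgeR. Without WT_Half replicate 6 it was 3.82 with an adjusted p of 0.00614 in edgeR, again from groups drawn apart by construction. DESeq2 on the same libraries gave a log2 change of 3.03 with adjusted p = 0.000785. That change is further from 0 than the 2.42 of edgeR. How DESeq2 treated the high count of WT_Half replicate 6 was not tested, so its call may not include that library as counted. In WT_Con, Ceacam10 had 0.242 to 5.11 CPM and Cyba 41.9 to 67.7 CPM.

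The other genes that led on the higher side had log2 changes from 0.46 to 1.37. Cbr3, a carbonyl reductase of the NRF2 response, had 32.5, 19.2, 16.5 and 30.1 CPM in WT_Full, against 6.22 to 18.7 with a median of 9.43 in WT_Half (log2 change 1.31 ± 0.29; adjusted p = 0.0436 in DESeq2). Anxa10, a member of the annexins, which bind phospholipids with calcium, had 17.8, 20.3, 28.5 and 23.9 CPM in WT_Full, against 3.58 to 16.2 with a median of 7.84 in WT_Half (log2 change 1.37 ± 0.32). The groups did not overlap for Anxa10. WT_Con replicate 3 had 520 CPM of Anxa10 and 63.6 CPM of Cbr3, above every WT_Full library for both. The other WT_Con libraries had 2.14 to 24.5 CPM of Anxa10 and 6.40 to 10.8 CPM of Cbr3. WT_Con replicate 3 also differed in tissue, with summed levels of 15508 CPM for stomach lining genes and 53685 CPM for Brunner gland genes. WT_Full libraries had at most 101 and 7156 CPM of these. Whether such tissue carried the Anxa10 and Cbr3 of that library was not tested. Urah, an enzyme of urate breakdown, had 20.3, 26, 22.6 and 25.5 CPM in WT_Full, against 15.2 to 19.3 with a median of 17.2 in WT_Half. Mrps21, a mitochondrial ribosomal protein, had 50.4 to 81.0 CPM in WT_Full, against 40.7 to 48.4 with a median of 45.4 in WT_Half. In both every WT_Full library was above every WT_Half library, at log2 changes of 0.46 ± 0.12 and 0.49 ± 0.13. Of the 12 genes that led on the higher side 4 had groups that did not overlap, beside 0.218% of all genes. The genes were chosen by their p, so the count is a description. The remaining 7 were Rps29 and Rps27a-ps2 (a ribosomal protein gene and a pseudogene of another), Atp5k (a subunit of ATP synthase), Il17rc (a receptor chain for interleukin-17), Ffar4 (a receptor for long-chain fatty acids), Fbxl22 (an F-box protein) and Gstp-ps (a pseudogene), with log2 changes from 0.53 to 1.02. Counts of the pseudogenes may hold reads of their parent genes.

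DESeq2 called 5 genes higher, namely Ceacam10, Cyba, Cbr3 and the predicted genes Gm9008 and Gm42047. Gm9008 was too low for the edgeR filter, with 0.038, 0.116, 2.77 and 3.21 CPM in WT_Full and at most 0.0332 CPM in WT_Half. Gm42047 had 58.9, 28.6, 27.5 and 21.5 CPM in WT_Full, against 6.61 to 83.6 with a median of 10.2 in WT_Half. The highest WT_Half library was thus above every WT_Full library. The log2 change of Gm42047 was 1.55 in DESeq2 and 0.72 in edgeR, where the unadjusted p was 0.292. As for Ceacam10, how DESeq2 treated the highest WT_Half count was not tested, so its call may not include that library as counted. The genes that led on the lower side, beside those given above, were enzymes and receptors of several kinds. Sult1a1, a sulfotransferase for phenols, had 3.72 to 6.63 CPM in WT_Full, against 4.99 to 16.2 with a median of 11.2 in WT_Half. Kmo, kynurenine 3-monooxygenase of tryptophan breakdown, had 5.43, 4.09, 5.17 and 3.15 CPM in WT_Full, against 6.07 to 10.6 with a median of 8.29 in WT_Half. Gbe1, the glycogen branching enzyme, had 7.36 to 8.97 CPM in WT_Full, against 9.38 to 15.9 with a median of 13.3 in WT_Half and 15.5 to 25.8 in WT_Con. Gpr182, a chemokine-binding receptor of endothelium, had 0.721, 0.695, 1.71 and 1.37 CPM in WT_Full, against 1.96 to 3.48 with a median of 2.46 in WT_Half. Kmo, Gbe1 and Gpr182 had no overlap between the groups. Their log2 changes were -0.88 ± 0.22, -0.64 ± 0.16 and -1.18 ± 0.31, and that of Sult1a1 was -1.15 ± 0.29. Of the 12 genes that led on the lower side 8 had groups that did not overlap, beside 0.259% of all genes, and these too were chosen by their p.

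Enzymes that handle ethanol and acetaldehyde had log2 changes on both sides of 0. Aldh2 (ENSMUSG00000029455) had 388, 404, 366 and 640 CPM in WT_Full, against 293 to 508 with a median of 467 in WT_Half. Its log2 change was 0.04 ± 0.18, with a 95% interval from -0.36 to 0.44, and it turned to -0.17 without WT_Full replicate 4. Of 17 genes of ethanol and aldehyde oxidation 7 had a positive and 10 a negative log2 change, with a median of -0.05 and none at an unadjusted p under 0.05. Aldh4a1 of proline breakdown had 21.3, 43.2, 12.4 and 88.8 CPM in WT_Full, against 11.8 to 120 with a median of 78.8 in WT_Half, so the groups overlapped widely. Aldh6a1 of valine breakdown had 14.0, 19.6, 13.0 and 22.2 CPM in WT_Full, against 14.0 to 27.6 with a median of 23.9 in WT_Half.

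Sugar uptake genes had negative log2 changes, with a wide spread among the WT_Full libraries. All 11 genes of sugar carriers and disaccharidases had a negative log2 change, with a median of -0.46 and none at an unadjusted p under 0.05. Slc5a1, the sodium-coupled glucose carrier SGLT1, had 863, 1150, 513 and 3283 CPM in WT_Full, against 761 to 3091 with a median of 2829 in WT_Half. Slc2a2, the glucose carrier GLUT2, had 275, 308, 126 and 668 CPM in WT_Full, against 205 to 737 with a median of 615 in WT_Half. Both genes were low in WT_Full replicates 1, 2 and 3 and WT_Half replicate 1 and high in WT_Full replicate 4 and the other WT_Half libraries. Leaving out 1 library, the median of the list ran from -1.26 without WT_Full replicate 4 to -0.25 without WT_Full replicate 3. The mean log2 CPM of 28 xenobiotic enzymes and exporters was low and high in the same libraries, at 6.00, 5.99, 4.77 and 7.30 in WT_Full, 5.32 in WT_Half replicate 1 and 6.35 to 7.27 in the other WT_Half libraries. The cell cycle list ran the other way, with 5.67, 4.70, 5.33 and 4.23 in WT_Full, 6.14 in WT_Half replicate 1 and 4.35 to 5.32 in the others. Its 23 genes had a median log2 change of 0.11. Peptide and amino acid uptake and fat absorption were low and high in the same libraries as the sugar genes. The 20 peptide and amino acid genes had a median log2 change of -0.08, which ran from -0.77 without WT_Full replicate 4 to 0.03 without WT_Full replicate 3. The 22 fat absorption genes had one of -0.03, which ran from -0.46 to 0.09 without the same libraries. Cholesterol synthesis (24 genes) had a median of 0.06 and tight and adherens junctions (19 genes) one of -0.01.

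Metabolic lists held a few genes with more separate levels. Among hypoxia and glycolysis genes 12 of 20 were positive in log2 change, with a median of 0.07 and 3 higher at an unadjusted p under 0.05, beside 2.56% of all genes. Pfkl, a phosphofructokinase of glycolysis, had 156, 135, 191 and 208 CPM in WT_Full, against 96.5 to 141 with a median of 125 in WT_Half and 161 to 198 in WT_Con. Slc16a3, the lactate exporter MCT4, had 75, 96.1, 142 and 120 CPM in WT_Full, against 49.8 to 88.8 with a median of 67.3 in WT_Half. For each of these 1 WT_Full library lay inside the range of WT_Half. Log2 changes were 0.49 ± 0.14 for Pfkl and 0.67 ± 0.20 for Slc16a3. Rbp2, which carries retinol in absorptive cells, had 4554, 7129, 3943 and 4808 CPM in WT_Full, against 2893 to 4678 with a median of 3662 in WT_Half, while its list of 14 retinoid genes had a median of 0.05. Of 26 genes of fatty acid oxidation and PPAR-alpha targets 21 had a negative log2 change, with a median of -0.14. Reg3a, an antimicrobial lectin, had 3.83, 5.52, 3.19 and 7.5 CPM in WT_Full, against 3.65 to 16.2 with a median of 9.41 in WT_Half, and its list of 17 antimicrobial and acute-phase genes had a median of -0.04.

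**Figure D4:**
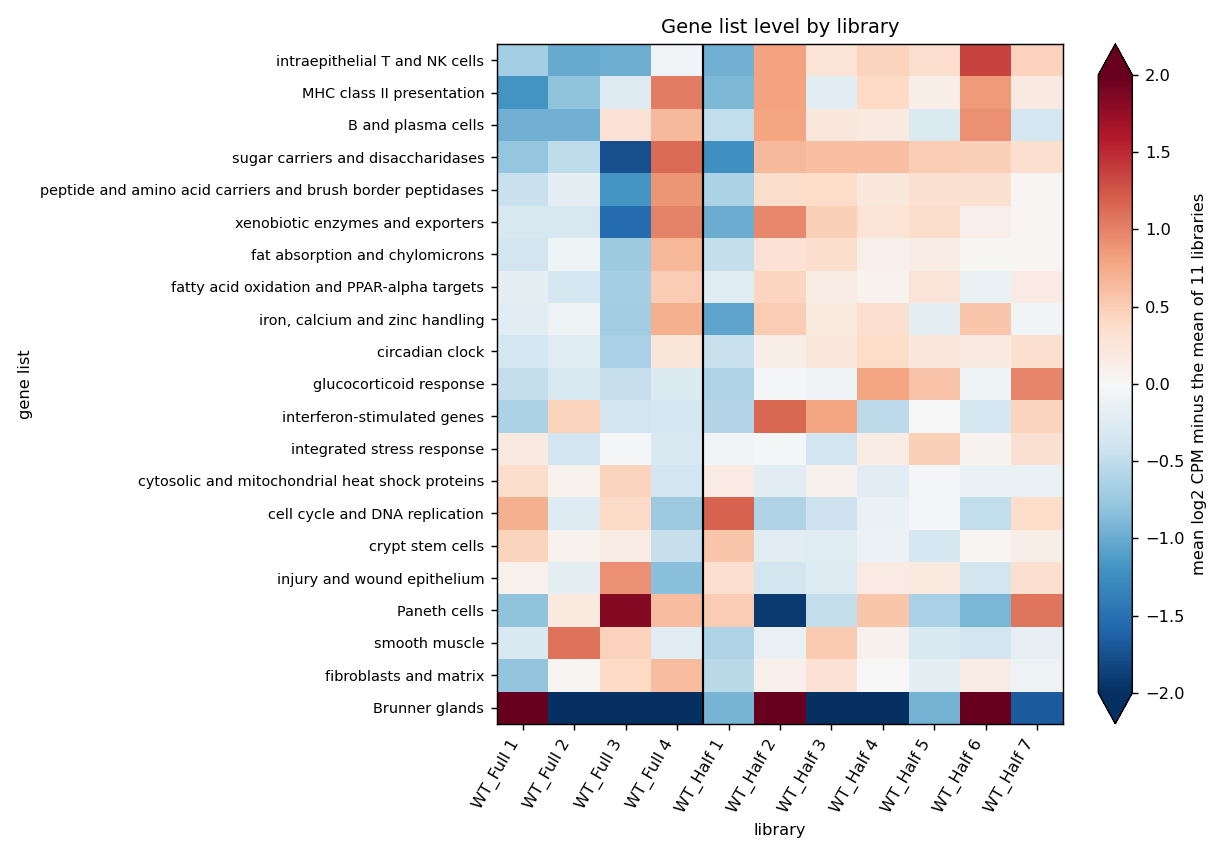
Mean log2 CPM of 21 gene lists in each library, minus the mean over the 11 libraries, with WT_Full at left of the black line and WT_Half at right. The colour scale ends at -2 and 2, which the Brunner gland list passes; WT_Full replicate 4 has the colours of WT_Half for sugar carriers and xenobiotic enzymes, and WT_Half replicate 1 those of WT_Full.

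Stress lists were split in direction, and 0 of their genes passed in edgeR. Of 20 NRF2 genes, which answer oxidants, 15 had a positive log2 change, with a median of 0.15. At an unadjusted p under 0.05, 4 were higher, beside 2.56% of all genes, and 1 was lower, beside 2.04%. The lower one was Gclc, the catalytic subunit of the enzyme that starts glutathione synthesis, with a log2 change of -0.74 ± 0.31. Besides Cbr3 the higher ones were led by Pgd, an enzyme of the pentose phosphate pathway, with 451, 470, 532 and 444 CPM in WT_Full, against 344 to 459 with a median of 368 in WT_Half. Nqo1, a quinone reductase, had 52.8, 36.3, 27.8 and 49.2 CPM in WT_Full, against 23.7 to 40.5 with a median of 26.6 in WT_Half. For both, the groups overlapped. Of 18 heat shock genes 14 had a positive log2 change, with a median of 0.22. Hspe1, the mitochondrial co-chaperonin, had 309, 300, 260 and 102 CPM in WT_Full, against 115 to 248 with a median of 123 in WT_Half. The first 3 WT_Full libraries were above all of WT_Half and WT_Full replicate 4 was below it. Of 19 endoplasmic reticulum chaperones 15 had a positive log2 change (median 0.23). In the integrated stress response, by contrast, 19 of 25 had a negative one, with a median of -0.20. At an unadjusted p under 0.05, 1 was higher and 1 lower, beside 2.56% and 2.04% of all genes. These were Cebpb, a transcription factor, with a log2 change of 1.01 ± 0.32, and Vldlr, a lipoprotein receptor, with -1.50 ± 0.57. The p53 target list of 19 genes had a median of -0.04.

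Interferon-stimulated genes had a negative log2 change in 19 of 20, with a median of -0.40. Over all genes tested, 7688 of 16967 were negative. At an unadjusted p under 0.05, 1 was lower, beside 2.04% of all genes. Cxcl10, a chemokine for T cells, had 1.82, 2.01, 1.15 and 1.31 CPM in WT_Full, against 0.819 to 16.7 with a median of 4.09 in WT_Half. Rsad2, the antiviral enzyme viperin, had 31.0, 67.9, 29.9 and 28.4 CPM in WT_Full, against 23.3 to 191 with a median of 71.1 in WT_Half. WT_Half replicate 3 was the highest library for both. The median of the list was -0.12 without WT_Half replicate 2. Inflammatory cytokines were even, with 9 of 18 positive and a median of -0.02. Csf3, the neutrophil growth factor G-CSF, had 0 to 0.28 CPM in WT_Full, against 0.171 to 2.04 in WT_Half, where replicates 4, 5 and 7 were again the highest. Immediate early genes had a negative log2 change in 14 of 16 (median -0.30), a median that was -0.09 without WT_Half replicate 7. Clock genes had a negative log2 change in 15 of 20, with a median of -0.24 and 4 lower at an unadjusted p under 0.05, beside 2.04% of all genes. The median ran from -0.52 without WT_Full replicate 4 to -0.12 without WT_Full replicate 3. Ciart, a repressor of the clock, had 3.91, 4.67, 1.96 and 2.61 CPM in WT_Full, against 3.22 to 12.9 with a median of 6.01 in WT_Half and 10.5 to 18.2 in WT_Con. The time of collection is not given for each library, so its part was not tested. The E-box CACGTG, a site read the same on both strands to which clock activators bind, was in 5 of 17 clock promoters (29.4%), beside 6.0% of all promoters of that length.

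**Figure D5:**
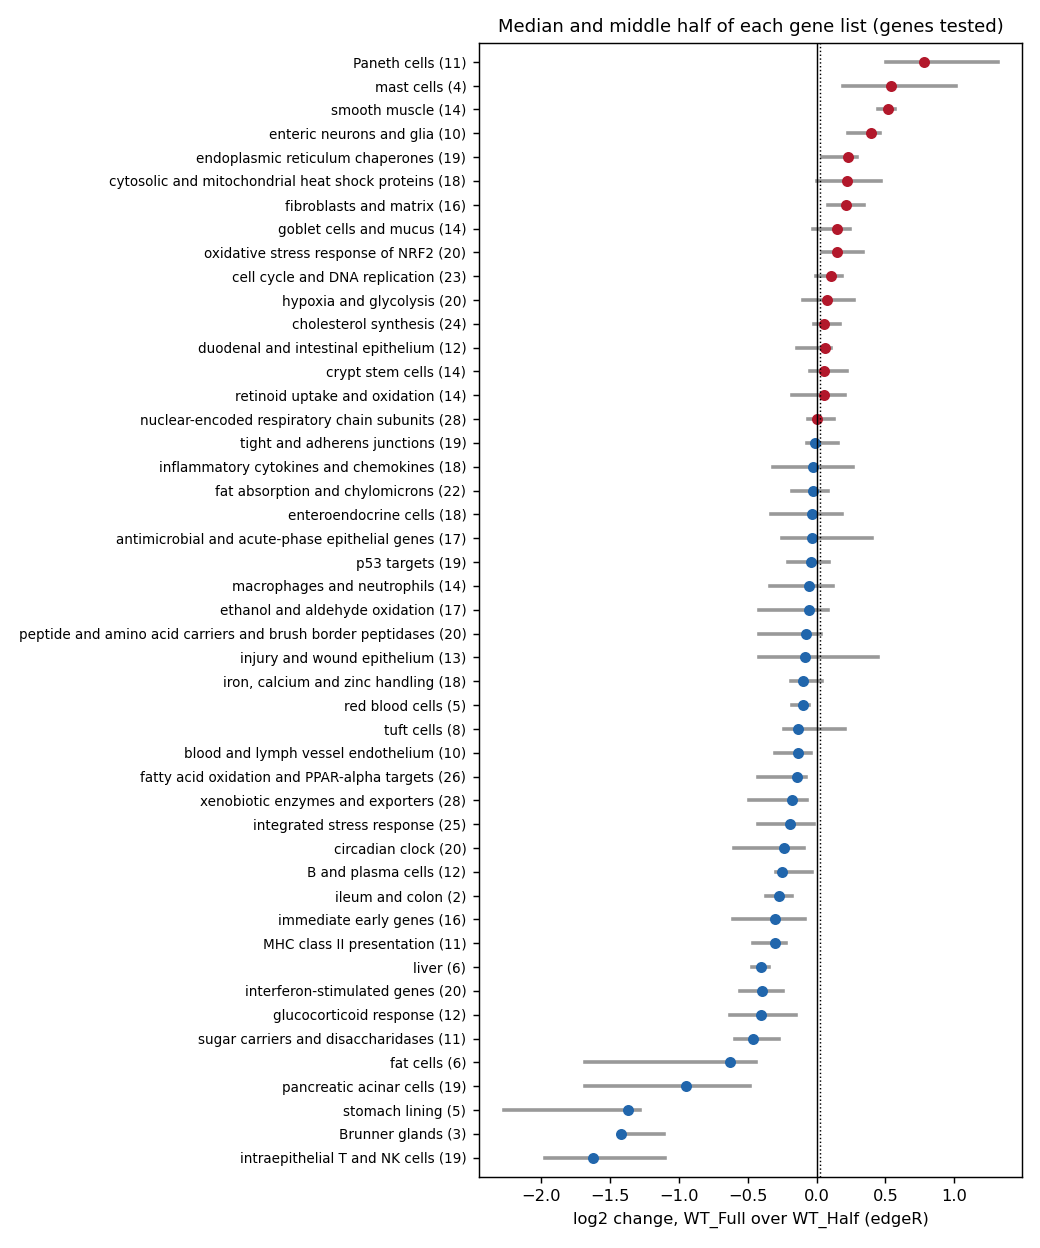
Median (point) and middle 50% (bar) of the log2 change of WT_Full over WT_Half for 47 gene lists, with the number of genes tested in brackets and the median of all genes as a dotted line. Intraepithelial T and NK cell genes lie lowest at -1.63 and Paneth cell genes highest at 0.78, and 0 genes of any list passed in edgeR.

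Genes of Paneth cells, which sit at the crypt base, and of the muscle wall had positive log2 changes. All 11 Paneth cell genes were positive, with a median of 0.78 and 1 at an unadjusted p under 0.05, beside 2.56% of all genes. Of 14 crypt stem cell genes 9 were positive and 5 negative, with a median of 0.05. Defa17, an alpha-defensin, had 3.64, 14.2, 6.88 and 2.41 CPM in WT_Full, against 0.634 to 7.18 with a median of 1.31 in WT_Half. Defa22, another, had 0.455, 2.16, 7.97 and 2.51 CPM in WT_Full, against 0 to 2.98 with a median of 0.672 in WT_Half. The groups overlapped, and defensin genes are near-identical copies whose reads may be shared. The median of the list was 0.15 without WT_Full replicate 3. All 14 smooth muscle genes had a positive log2 change, with a median of 0.52. Smtn, smoothelin of contractile muscle, had 83.7, 162, 93.8 and 66.5 CPM in WT_Full, against 56.1 to 89.4 with a median of 65.5 in WT_Half. WT_Full replicate 2 was the highest library for Smtn and for the list as a whole, and the median was 0.13 without it. All 10 genes of enteric neurons and glia were positive too, with a median of 0.40, and 0.03 without WT_Full replicate 2. Of 16 fibroblast genes 13 were positive, with a median of 0.21, or 0.02 without WT_Full replicate 4 and -0.02 with limma-voom. They were led by Col1a1, a chain of type I collagen, with 49.95, 95.7, 128 and 173 CPM in WT_Full, against 49.4 to 89.9 with a median of 67.1 in WT_Half.

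Genes of the pancreas and stomach were low and uneven in WT_Full and WT_Half. Of 19 pancreatic acinar genes 18 had a negative log2 change, with a median of -0.95, at a summed level of 69.3 to 118 CPM in WT_Full and 57.6 to 189 in WT_Half, against 40.3 to 3291 in WT_Con. Pnliprp1, a lipase-related protein of the pancreas, had 0.645, 0.85, 0.140 and 1.07 CPM in WT_Full, against 1.31 to 2.89 with a median of 1.85 in WT_Half, with no overlap. Of 5 stomach lining genes 5 were negative, at a summed level of 4.85 to 101 CPM in WT_Full and 3.35 to 271 in WT_Half. In WT_Con that level ran from 3.26 to 15508 CPM. Muc5ac, the surface mucin of the stomach, was at 0 in WT_Full replicate 2 and at most 0.152 CPM in the other WT_Full libraries, against 0 to 2.28 with a median of 1.84 in WT_Half. Liver genes were not low, and 6 of 6 had a negative log2 change, with a median of -0.40. Their summed level was 113 to 726 CPM in WT_Full, 553 to 872 in WT_Half and 604 to 1593 in WT_Con. With the Brunner gland level as a covariate, edgeR called 0 genes after Benjamini-Hochberg adjustment and the T and NK list had a median of -1.46.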

How the data were processed

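Per the submitters' processing notes, the authors checked reads with FastQC, trimmed them with Trimmomatic, aligned them with HISAT2 to GRCm38, handled them with SAMtools, counted them with featureCounts and ran DESeq2. Neither versions nor the strand setting nor the annotation is given in the sources used here, so reads of overlapping genes cannot be assigned with certainty. The deposited counts are whole reads per gene, not normalised; the smallest number of libraries above 20 counts was 5 for any gene, so rarer genes were not analysed here. The 17220 lines of each table held 17007 gene identifiers, of which 16995 matched GENCODE M21.

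Counts of the 11 libraries were tested in R 4.3.3 with edgeR 4.0.16 (trimmed mean of M values, default filter, quasi-likelihood F test, two-sided, Benjamini-Hochberg over 16967 genes, threshold 0.05). DESeq2 1.42.0 and limma 3.58.1 were alternatives. CPM are scaled over all 25 libraries. The steps were tested on simulated data. The labels do not say that libraries of a group came from separate animals, so p-values measure the spread between these samples, which may be technical.

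The genes and the 47 lists were chosen with earlier results of these data known. The text names the 12 genes of smallest p in each direction whose average log2 CPM reaches 1, the 3 members of smallest p per list and Aldh2, in part; other genes were chosen after their values were seen.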

Additional observations from a re-analysis of the deposited data

Results flagged for a closer look

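Over 69 named genes and both groups, 138 sets of libraries were looked at for a single library far from the rest of its group, and 20 such libraries were found in 19 genes, where chance gives about 1 in 20. The values below are in CPM, and no explanation was tested.

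WT_Half replicate 1 stood apart most often. It was the lowest of its group for Klrd1 (1.04, the next library being at 2.62), Nkg7 (0.273), Gzmb (1.07), Muc3 (1372, next 2658), Slc5a1 (760.6, next 2422), Slc2a2 (205, next 561), Aldh4a1 (11.8, next 73.1) and Aldh6a1 (14.0), and the highest for Hspe1 (248, next 143) and Gm42047 (83.6, next 16.1). For Muc3 and Klrd1, which lay lower in WT_Full, this library was the WT_Half library nearest to WT_Full.

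In WT_Full, replicate 4 was the highest for Nlrc3 (1.37) and the lowest for Hspe1 (102, the next library being at 260.2). Replicate 1 was the highest for the Brunner gland genes Muc6 (2631, next 17.9) and Gkn3 (1255, next 12.8). Replicate 2 was the highest for Rsad2 (67.9, next 31.0) and Gstp-ps (63.9, next 36.6), and replicate 3 the lowest for Fbxl22 (3.91, next 7.33).

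Among the other WT_Half libraries, replicate 6 was the highest for Ceacam10 (14.2, the next being at 2.52) and Cyba (91.0, next 60.3), the 2 genes that passed when it was left out. Replicate 3 was the highest for Smtn (89.4, next 68.3).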

How the results depend on the processing

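With edgeR the count of genes past the threshold was 0 under relative log expression factors, no filter and robust estimation. It was also 0 under 1 fit of all 25 libraries and the Brunner gland covariate. Leaving out each library in turn, the count ran from 0 to 2, the 2 being Ceacam10 and Cyba without WT_Half replicate 6. For both genes that was the 1 WT_Half library that overlapped with WT_Full, so leaving it out draws the groups apart by construction. The count was 20 with DESeq2 and 2 with limma-voom. The cause was not tested. Leaving out WT_Full replicate 4 and WT_Half replicate 1 together, chosen after seeing the data, gave 1051 genes (558 higher, 493 lower). These libraries were picked from the same counts because each lay on the side of the other group, which draws the groups apart by construction. The replicate block, with replicates 1 to 4 of both groups, called 0 genes, as did the same 8 libraries without it. Deviations of same-numbered libraries correlated at 0.50, -0.12, -0.15 and 0.01, so the numbers were not taken as a pairing, and only replicate 1 correlated best with its own number. Of 69 named genes, a direction reversed for 3. Muc6 was at 0.05 with the Brunner gland covariate against -1.42. As Muc6 is itself part of that covariate, its group difference is largely removed by construction, and this reversal decides nothing. Tff2 ran from -7.03 to 0.3 leaving out 1 library. Aldh2 was at -0.16 with limma-voom and ran from -0.17 to 0.12 leaving out 1 library. The median of 24 of 47 lists changed sign under some alternative, most of them lists near 0. That of Paneth cells, smooth muscle and T and NK cells did not. Depth limits genes of about 1 CPM such as Klrd1, where 1 CPM is 24.6 to 41.0 reads before scaling.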

Other observations

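Groups with the Aldh2 knock-in allele, which are not part of the comparison, gave levels for some of its genes. Fkbp5 had 261 to 700 CPM in KI_Half (median 622, 6 libraries), against 13.5 to 98.2 in KI_Con (median 45.3, 4 libraries). Cep85 had 441 to 1657 CPM in KI_Half, against 174 to 278 in KI_Con, and Rrm2 93.5 to 499 in KI_Half, against 21 to 41.7 in KI_Con. Zbtb16 had 5.89 to 48.2 CPM in KI_Half, with a median of 36.6, against 2.37 to 7.5 in KI_Con. For Fkbp5, Cep85 and Rrm2 all 6 KI_Half libraries were above the 4 KI_Con libraries, and above the 4 WT_Full libraries. These values were looked at after the wild-type pattern was seen, and no test was run.

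Genes described for WT_Full and WT_Half above lay as follows. Muc3a had 71.7 to 281 CPM in KI_Half and 135 to 233 in KI_Con, so that the 47.6 to 85.7 CPM of WT_Full overlapped with KI_Half alone. Muc3 had 1926 to 3576 CPM in KI_Half and 3507 to 4826 in KI_Con, Klrd1 1.66 to 3.97 in KI_Half and 3.32 to 5.38 in KI_Con, and Cish 9.10 to 16.1 in KI_Half and 15.2 to 22.3 in KI_Con. Cyba had 49.5 to 122 CPM in KI_Half, with a median of 73.7, and 40.1 to 56.4 in KI_Con. Ceacam10 had 0.519 to 18.6 CPM in KI_Half, with a median of 3.67, and 0.462 to 1.15 in KI_Con. Cd8a had 2.46 to 14.0 CPM in KI_Half, with a median of 4.18, and 22.6 to 27.4 in KI_Con.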
